A study of Mus musculus with 2 samples.

Results

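Replication-independent histone variants can be made and placed into chromatin outside S phase, and 8 mouse genes of this kind, of the 18193 genes measured, were followed in an siRNA screen: H2az1, H2az2, H2ax, Macroh2a1, Macroh2a2, H3f3a, H3f3b and Cenpa. Of the 45037 probe sets analysed, 12 carried the symbol of 1 of these genes and no other symbol. The probe sets were chosen by gene name, under current or older symbols. The family itself was selected on the measured signals of both arrays, because the difference at an H2az1 probe set was already known, so every value below is a description and none was tested.

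The cells were ANSO4E, a neural stem cell line from a transgenic mouse (C57BL/6JxSJL/JF1 oocytes, BDF1 sperm) grown with b-FGF and EGF. Both cultures carried a lentiviral siRNA library against the mouse transcriptome. The reference control was left without MNNG, an agent that methylates DNA. The survivors had outlived 500 µM MNNG given for 15 min, were regrown and were exposed again. Inserts of the library were amplified from each culture, biotinylated and hybridized to 1 Affymetrix whole-genome mouse expression array per condition. The number of arrays limits the precision, since 1 array per condition gives no replicate error. A signal stands for inserts that match a probe set and not for transcripts, so neither histone expression nor the neural identity of the line could be checked on these arrays.

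In chromatin, a nucleosome wraps DNA around an octamer of core histones, and a variant takes the place of the canonical histone of its class. H2A.Z, encoded by H2az1 and H2az2, marks promoters and is exchanged by the SRCAP and TIP60/p400 remodelers. H2A.X carries the serine that ATM, ATR and DNA-PK phosphorylate beside DNA breaks, and a macroH2A1 isoform binds ADP-ribose through its macrodomain. H3.3, the same protein from H3f3a and H3f3b, is deposited by HIRA at active genes and by DAXX and ATRX at repeats. CENP-A replaces H3 at centromeres, where it specifies the kinetochore.

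Signals were deposited on the log2 scale, and differences are survivors minus reference control. Values of a probe set are given first without MNNG, from the reference control, and then after it, from the survivors. The median log2 signal of all probe sets was 0.69 without MNNG and 0.74 after it, and the upper quartiles were 1.02 and 1.07. Signals took few distinct values. On the reference control array 5118 distinct values covered the 45037 probe sets, and 93.2% of probe sets shared theirs with another. Differences came in common steps as well, and 92.4% of probe sets fell in groups of at least 100 with a difference of the same size, within 2e-06 and of either sign. The only measure of spread used below is the scaled median absolute deviation of the differences of all probe sets, 0.45. All 18 hybridization controls, which are spiked in at set amounts, had more signal on the survivors' array, by a median of 2.77.

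An H2az1 probe set had the highest signal of the reference control array and a signal near the bottom of the survivors' array. Probe set 1438091_a_at had a log2 signal of 12.07 without MNNG and 0.18 after it, a difference of -11.89. On the linear scale these are 4299 and 1.14 units. The H2az1 probe set thereby held rank 1 of 45037 in the reference control and gave 3.18% of the summed linear signal there. In the survivors the same probe set lay above 5.49% of all probe sets and gave 0.00104% of the summed signal. The difference was the most negative of the series. It was -11.86 after quantile normalization and -8.41 after loess. The survivors' signal lay near the lowest of its array. With each array floored at its 25th percentile the difference was -11.56, close to the deposited -11.89.

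The difference was not shared by the other H2az1 probe set. Probe set 1438092_x_at, annotated with the same GenBank sequence, had 0.97 without MNNG and 0.49 after it, a difference of -0.48. A difference of at least this size was found in 33.6% of all probe sets, and 1590 had a difference of this same size in either direction. The gap between both H2az1 probe sets, 11.40 on the log2 scale, exceeded that of every other gene among the 9010 with several probe sets. In those genes the median range was 0.68 and the 95th percentile was 2.40. Which bases of H2az1 each probe set reads, and which siRNA of the library carried the signal, was not tested.

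**Figure D1:**
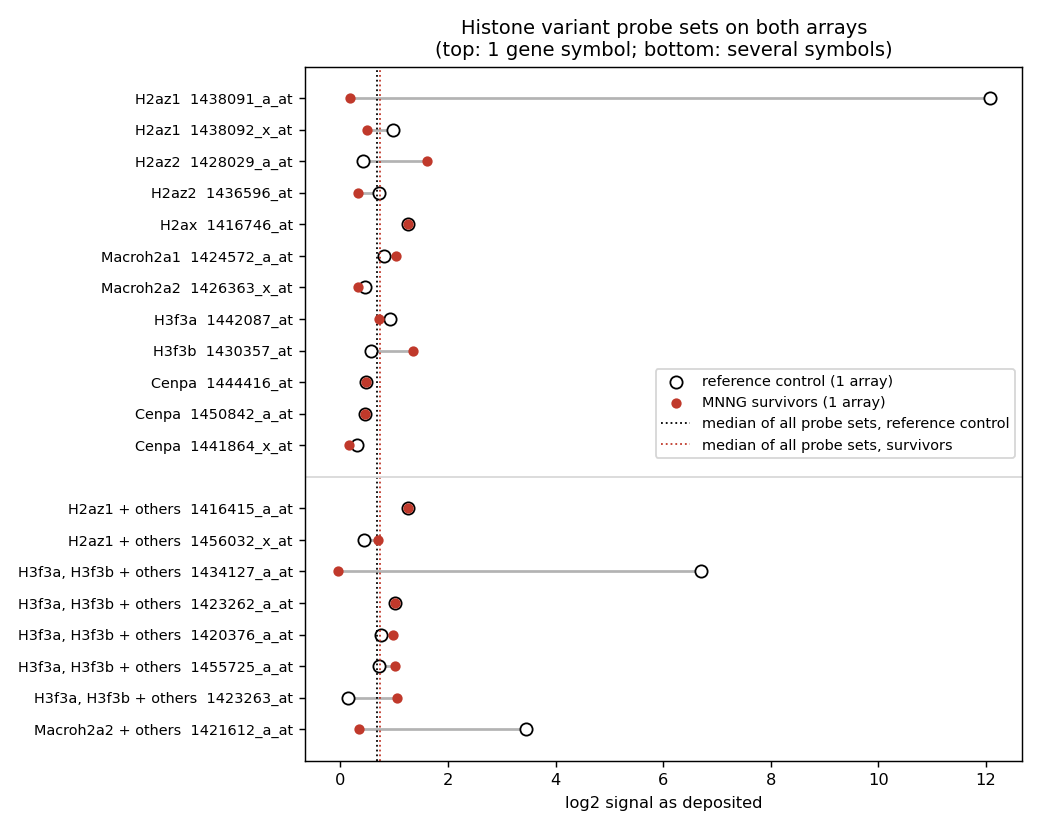
Log2 signal as deposited (horizontal axis) for each probe set that carries a histone variant symbol, with open circles for the reference control and red points for the MNNG survivors, 1 array each. Dotted lines mark the medians of all probe sets (0.69 and 0.74); 1 H2az1 probe set runs from 12.07 to 0.18, whereas the remaining 11 probe sets with 1 symbol stay at or below 1.60.

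H2az2 encodes the second H2A.Z isoform, and its probe sets differed in direction. Probe set 1428029_a_at had a log2 signal of 0.43 without MNNG and 1.60 after it. This difference of 1.18 was the highest among the variants and 2.63 times the scaled median absolute deviation, and 5.30% of all probe sets differed by at least as much in either direction. Probe set 1436596_at had 0.71 and 0.32, a difference of -0.39. The range of 1.57 between them was reached by 12.8% of the genes with several probe sets. Centering the arrays on the hybridization controls turned the higher value, to -1.59.

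H2ax, whose product is phosphorylated around DNA breaks, had the same signal on both arrays. Its single probe set, 1416746_at, had 1.26 without MNNG and 1.26 after it, equal to all deposited decimals. Equal values were found in 19.4% of all probe sets, and 91 probe sets of the reference control array had this same signal. H2ax thus showed no difference at the resolution of the deposited signals.

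The macroH2A genes had small differences of opposite sign at the probe sets with a single symbol. Macroh2a1, which encodes the macroH2A with an ADP-ribose binding isoform, had 0.80 without MNNG and 1.03 after it at 1424572_a_at, a difference of 0.23. Macroh2a2, its paralog, had 0.46 and 0.32 at 1426363_x_at, a difference of -0.14. Both differences were under the scaled median absolute deviation, and differences of these sizes were found in 1783 and 2316 probe sets.

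The H3.3 genes encode the same protein from different transcripts and had differences of opposite sign. H3f3b had a log2 signal of 0.57 without MNNG and 1.35 after it at 1430357_at. This difference of 0.78 was exceeded or matched in size by 14.2% of all probe sets. H3f3a had 0.92 and 0.72 at 1442087_at, a difference of -0.19 and under the scaled median absolute deviation.

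Cenpa, the centromeric H3 variant, was read by 3 probe sets with small or no differences. The signal was 0.48 on both arrays at 1444416_at and 0.46 on both arrays at 1450842_a_at. At 1441864_x_at it was 0.30 without MNNG and 0.16 after it, a difference of -0.14. A range over probe sets at least as wide as the 0.14 of Cenpa was found in 92.0% of the genes with several. The range of Cenpa was thus narrower than that of most genes, and those of H2az2 and H2az1 were wider.

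**Figure D2:**
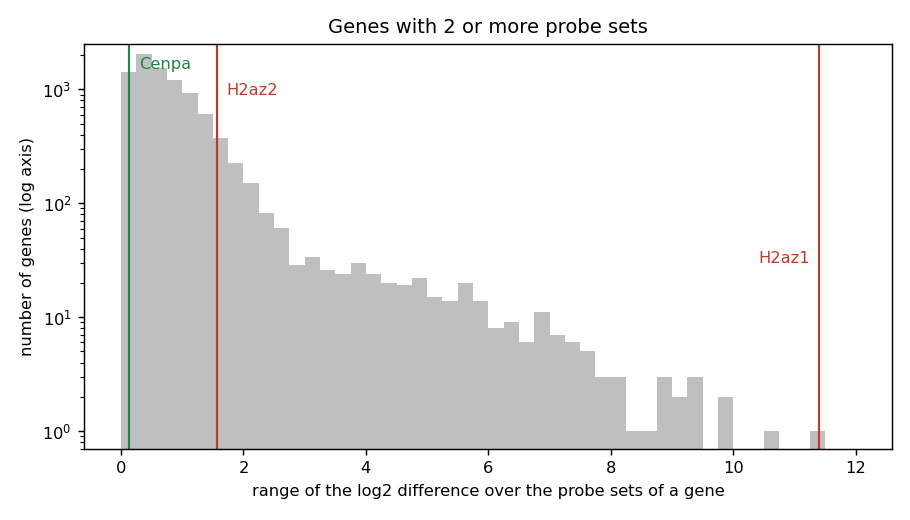
Number of genes (vertical log axis) by the range of the log2 difference over a gene's probe sets (horizontal axis), for the 9010 genes with several probe sets. Lines mark Cenpa at 0.14, H2az2 at 1.57 and H2az1 at 11.40, which is the right end of the distribution.

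Over all 12 probe sets of the family, the survivors had more signal in 3, less in 6 and the same in 3, and the median difference was -0.07. Over the whole array 44.2% of probe sets had more signal in the survivors and 36.4% had less, and the median was 0. A difference below -1 was found in 1 of the 12, the H2az1 probe set, where 3.93% of all probe sets had such a difference. A difference above 1 was found in 1 of the 12, the H2az2 probe set, against 3.75% of all. The count below -1 was fixed by the choice of the family, since the difference at this H2az1 probe set was already known. Without it, 0 of the remaining 11 were lower by over 1 and 1 was higher. Each count of 1 of 12 is 8.33%, and counts this small cannot tell the family from that background. Without the bright H2az1 probe set the median of the remaining 11 was 0, and their signals ran from 0.30 to 1.26 in the reference control and from 0.16 to 1.60 in the survivors. The scaling mattered for these counts, because centering on the hybridization controls put all 12 lower by over 1.

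**Figure D3:**
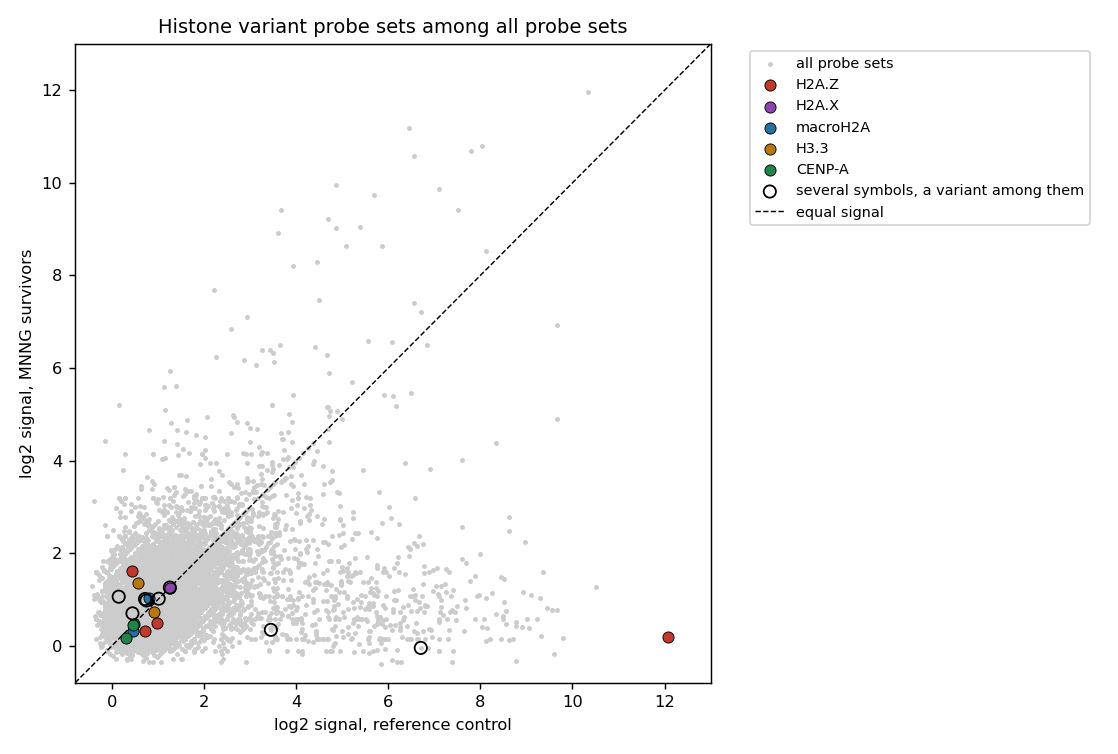
Log2 signal in the survivors (vertical axis) against the reference control (horizontal axis), with grey points for all 45037 probe sets, filled points for the 12 histone variant probe sets and open circles for 8 probe sets that list a variant beside other symbols. The bright H2az1 probe set lies alone at the lower right, at 12.07 and 0.18, and the dashed line marks equal signal.

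Another 8 probe sets list a variant beside 1 or more other loci, and these name no gene. A pair of them list H2az1 with the predicted gene Gm8203. At 1416415_a_at the signal was 1.26 on both arrays, and at 1456032_x_at it was 0.45 without MNNG and 0.70 after it. Neither repeated the high reference signal of 1438091_a_at.

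H3f3a and H3f3b are listed together on 5 probe sets of 6 symbols each, which also hold H3f3c and predicted genes. Probe set 1434127_a_at had 6.71 without MNNG and -0.05 after it, a difference of -6.75 of a size reached by 52 of all probe sets, itself included. The remaining 4 had differences of 0, 0.23, 0.29 and 0.91. The probe set shared by Macroh2a2 and Macroh2a3 had 3.45 and 0.34, a difference of -3.11 of a size reached by 405 of all probe sets. Of the 5 probe sets shared by H3f3a and H3f3b, then, 1 was high in the reference control and low in the survivors. The same held for 1 of the 2 H2az1 probe sets with a single symbol. The group of Macroh2a2 and Macroh2a3 held only 1 probe set, so it had none to compare. No other probe set had exactly the size of any of these 3 differences, while 98.7% of all probe sets shared theirs with another. The remaining 17 of these 20 probe sets had differences between -0.48 and 1.18. Of the 8 with several symbols, 2 (25%) were lower by over 1 and 0 higher, against 3.93% and 3.75% of all probe sets. These counts are small and were not tested, and the H2az1 difference was known when the family was chosen.

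Probe sets picked for a high signal on either array had, as the choice itself favors, less on the other. The 301 probe sets that exceeded 5 (log2) on the control array had a median difference of -5.35, and the 58 that exceeded it in the survivors had one of 2.81. Of the 301, 27.9%, with H2az1 included, lay under the 25th percentile of the survivors' array, as did 24.9% of all probe sets. Probe sets ending in _x_at, a suffix for probes that may also match other genes, made up 36.2% of the 301 and 5.42% of all. Probe sets ending in _a_at, a suffix for probes shared by transcripts of a gene, made up 19.3% and 9.83%. The part of probe design in the H2az1 difference was not tested.

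Among probe sets with 1 gene symbol, the 5 most like 1438091_a_at, by distance over its log2 signals on both arrays, belonged to Tubb4b, Klk1, Gja1 and Zdhhc14. Tubb4b, a beta tubulin, had 9.79 without MNNG and 0.17 after it at a distance of 2.28. Klk1, a kallikrein protease, was present with 2 probe sets, at 9.61 and -0.17 and at 9.32 and 0.20. Gja1, a gap junction connexin, had 9.44 and 0.83, and Zdhhc14, a palmitoyltransferase, had 9.23 and 0.57. A further 3 probe sets without a single gene symbol were closer than the last of these, the nearest at a distance of 1.89, with 10.52 without MNNG and 1.26 after it. Other probe sets of these genes did not all share the pattern. Their log2 differences ran from -6.35 to 1.02 for Tubb4b, from -5.76 to 0 for Gja1 and from -8.68 to 1.18 for Zdhhc14. For Klk1, those beside its first probe set ran from -9.12 to 0. Each of these genes thus had another probe set far lower in the survivors, and another at 0 or above. Klk1 had 4 probe sets and the other genes had 6 each, whereas H2az1 had 2 with a single symbol. The lowest of several is therefore set beside 1 value for H2az1, the -0.48 of its other probe set.

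The partners of the variants and other histone genes were read at 1 probe set per gene, the set of highest mean signal. The 101 measured genes of the 8 lists include 6 other replication-independent and 11 replication-dependent histone genes. Of the 101, the survivors had more signal for 48, less for 34 and the same for 19, and the median was 0. Differences above 1 were found for 7 genes and below -1 for 6, against 4.78% and 5.45% of all 18193 genes. At 1 probe set each, 3 of the variants themselves were higher, 3 lower and 2 equal. The differences of the 101 listed genes ran from -2.11 to 1.93.

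Among 19 measured genes that exchange or chaperone H2A.Z, 8 had more signal and 8 less in the survivors, around a median of 0. Epc2 and Epc1, paralogous scaffolds of the TIP60 complex, stood at opposite ends. Epc2 had 3.17 without MNNG and 1.49 after it, a difference of -1.67. Epc1 had 0.86 and 2.16, a difference of 1.30, with -0.23 at the lowest of its 3 probe sets. Kat5, the acetyltransferase TIP60, had 0.28 and 1.07, while its other probe set had a difference of -1.00.

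Among 9 chaperones of H3.3, 6 had more signal in the survivors and 2 had less, the median was 0.48, and 0 differed by over 1. Ubn1, a subunit of the HIRA complex, had 0.74 without MNNG and 1.52 after it, and its paralog Ubn2 had 1.42 and 0.71. Atrx, which works with DAXX, had 1.03 and 1.71, with differences from -0.91 to 0.68 over 7 probe sets. Taking each gene at the median of its probe sets gave 0.15 for the list, below the 0.20 of the macroH2A partners, and hybridization control centering gave -2.28.

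Among 19 measured genes of CENP-A deposition and the constitutive centromere network, 10 had more signal and 6 less, and the median was 0.10. Mis18a, a licensing factor for CENP-A loading, had 1.12 without MNNG and 3.05 after it, a difference of 1.93. It was higher at its other probe set too, by 0.49. Cenpl had 0.81 and 2.51, and Cenpo had 2.47 and 1.16, though the 6 probe sets of Cenpo ran up to 0.23. Both belong to the network that binds CENP-A nucleosomes.

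Among 21 genes that phosphorylate, read or dephosphorylate H2A.X, 9 were higher, 7 lower and 5 equal, with a median of 0. Trp53bp1, a reader of the modified chromatin at breaks, was the only gene beyond 1, with a difference of -1.56, and its 6 probe sets ran up to 0.48. Mcph1, which binds phosphorylated H2A.X, had 1.36 without MNNG and 2.27 after it, with -0.39 at its other probe set. Atm, a kinase of H2A.X, had 0.35 and 1.04, and its other probe set was higher by 0.29. The kinase thus had more signal in the survivors at both of its probe sets, with the scaled median absolute deviation between these differences. Its 0.35 lay under the lower quartile of the reference control, 0.43, and its 1.04 under the upper quartile of the survivors, 1.07.

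The 6 macroH2A partners had a median of 0.20, with 4 higher and 2 lower. Parg, which degrades poly(ADP-ribose), had a difference of 1.12. Chd1l, a remodeler activated by poly(ADP-ribose), had 0.87 without MNNG and 1.66 after it, and the deacetylase Hdac1 had 0.59 and 0.88. Each of these 3 genes had a single probe set.

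Among 10 measured general histone chaperones 4 had more signal and 4 less, and the median was 0. Ncl, nucleolin, had 3.71 without MNNG and 1.60 after it, a difference of -2.11, and its 5 probe sets ran up to 0.42. Nasp, a chaperone of H3 and H4, had 2.16 and 0.79, and its 5 probe sets ran up to 0.68. Set, also known as TAF-I, had 1.38 and 2.69, and its 3 probe sets ran down to -0.25. The direction of all 3 thus turned with the probe set.

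Other histone genes were read in the same way. Of 6 measured replication-independent genes outside the family, 2 were higher, 2 lower and 2 equal, and the median was 0. The spermatid linker histone Hils1 had -0.23 without MNNG and 1.47 after it. H2aj, an H2A variant, had 0.00 and 1.40, with differences from 0 to 1.41 over 3 probe sets. The oocyte linker histone H1f8 had 0.89 and 0.14. Of 11 replication-dependent histone genes with a probe set of their own, 5 were higher, 3 lower and 3 equal, and 0 differed by over 1. The ends were H1f4, a linker histone, with a difference of 0.92, and H2ac19, a canonical H2A, with -0.69, while H2bc18, a canonical H2B, had 0.49.

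**Figure D4:**
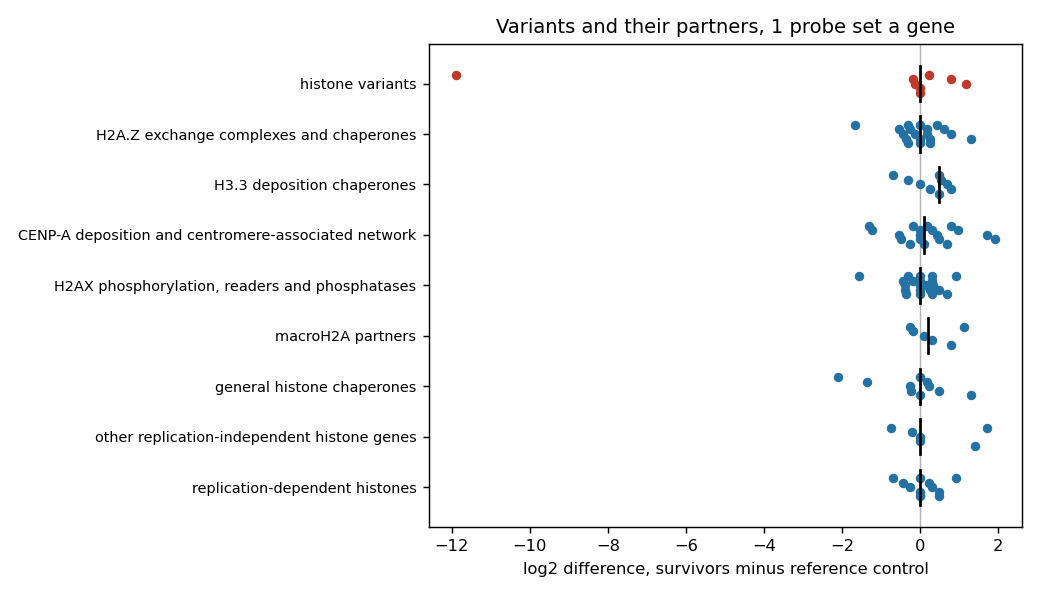
Log2 difference between the survivors and the reference control (horizontal axis) for the 8 histone variants (red) and for 8 lists of partner and histone genes (blue), 1 point per gene at its probe set of highest mean signal and a black bar at each median. Every listed gene lies between -2.11 and 1.93, and H2az1, whose value was known when the family was chosen, lies at -11.89.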

How the data were processed

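Each condition has 1 array, deposited as log2 signals by the authors. RMA is the method in the submitters' processing notes, with no software or version given in the sources used here, and the methods add R and a program from the supplier of the library. Groups came from the sample labels. The labels give genomic DNA as the template and the methods give RNA.

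Computed here were differences (survivors minus reference control), medians, ranks and counts past a log2 difference of 1, after 64 control probe sets were left out. Symbols came from the array annotation, and gene IDs gave the current symbol for 34741 of 34945 probe sets with 1 symbol (assembly GRCm38.p6, no coordinates used). Another 932 had several symbols and were not assigned to a gene. Probe set signals depend on probe affinity, so ranks between them describe signal only.

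Members and lists were chosen with earlier results of these data known. All member probe sets, the 3 genes of largest absolute difference in each list and the 5 nearest probe sets of H2az1 with 1 symbol were named. Of the partners and histone genes listed, 9 had no probe set with 1 symbol. No test between conditions was possible with 1 array each. The code was run on simulated data with known shifts and no noise, which checks the calculation and not the precision of these arrays. No probe, siRNA or protein sequences were used here. Python 3.11.15, numpy 2.4.6, pandas 2.3.3, statsmodels 0.14.6 and matplotlib 3.10.9 were used.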

Additional observations from a re-analysis of the deposited data

How the results depend on the processing

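The H2az1 difference of -11.89 kept its direction under all 4 rescalings, between -8.41 (loess with a fraction of 0.3) and -14.65 (hybridization controls), and was -11.56 with a floor at the 25th percentile. Centering on the hybridization controls lowered every difference by 2.77. It turned the H2az2 value at 1428029_a_at to -1.59, put 12 probe sets lower and 0 higher by over 1, put 8 of 8 genes lower and 0 higher, and gave a median of -2.84 over probe sets and -2.77 over genes. The list medians became -2.28 for H3.3 chaperones, -2.57 for macroH2A partners, -2.67 for CENP-A genes and -2.77 for the other 5 lists. At 1 probe set per gene, 5 variants rather than 3 were lower after median centering, quantile normalization or loess and when each gene was taken at its dimmest probe set, and 5 were higher with the floor. A fold of 0.5 gave 2 higher probe sets and a fold of 2 gave 0. No replicate could be left out, and no paired analysis was possible because each condition had 1 array.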
